A study of Danio rerio with 12 samples.

Results

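The genes described here are 9 early neural crest genes of the zebrafish, crestin, foxd3, snai1b, snai2, sox10, sox9b, tfap2a, tfap2c and kita, chosen by name from a table of 31901 genes. Each symbol matched 1 row of that table. Of the 9 genes, 8 reached 1 FPKM (fragments scaled by gene length and library size) in at least 4 of 12 libraries and were tested with 14433 genes in all. The receptor gene kita did not reach that level and is described without a test across genes.

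RNA came from whole wildtype embryos in 3 groups of 4 libraries, all kept in solution between 6 and 24 hours post-fertilisation (hpf). The vehicle group received 0.1% DMSO, the second group 75 µM GW9662, which blocks the nuclear receptor PPARγ irreversibly, and the third 25 µM rosiglitazone, an agonist of that receptor. The doses differ, so the sizes of the responses are given side by side and say nothing of potency. Groups follow the sample titles and library names. A treatment field of the labels disagrees with them, reading TBBPA where the titles give GW9662 and DMSO where they give rosiglitazone. A batch tag gives every library an hour of its own, from 24 to 35 hpf. The hours run from 24 to 27 in DMSO, 28 to 31 in GW9662 and 32 to 35 in rosiglitazone, without overlap. Batch and group therefore cannot be told apart. These hours rise in sample order and run past 24 hpf, the end of exposure. Whether they are true times of collection is not known. The libraries held 12.8 to 22.7 M fragments assigned to genes, and the labels do not say whether replicates are separate clutches, so p-values measure the spread between these libraries, which may be technical. In whole embryos, fewer cells of a type and less RNA per cell cannot be told apart.

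The neural crest is a cell population of vertebrate embryos that arises at the border of the neural plate, leaves the neural tube by an epithelial to mesenchymal transition and forms pigment cells, peripheral neurons and glia, and much of the skeleton of the face. Border genes and the AP-2 factors act first, the crest specifiers foxd3, snai1b, snai2, sox9b and sox10 follow, and lineage genes such as kita and mitfa come later. Several of the 9 genes are also expressed outside the crest: the AP-2 genes are also active in epidermis, sox10 in the ear, sox9b in brain and cartilage, and foxd3 in somites and floor plate.

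In vehicle embryos the 9 genes spanned from 48.0 to 0.727 FPKM, the means of tfap2a and kita. After tfap2a came tfap2c at 24.5, foxd3 at 24.4 and sox9b at 23.5 FPKM, 3 neighbours whose libraries overlapped. Lower in the order stood snai2 at 16.6, sox10 at 15.02, snai1b at 7.53 and crestin at 6.16 FPKM, each wholly separated from the next. The order shifted with treatment. In GW9662 libraries sox9b held the fifth place, where its libraries overlapped those of snai2 and sox10, and foxd3 moved above tfap2c. Rosiglitazone libraries also had foxd3 above tfap2c and snai2 above sox9b. Over the 12 libraries, the 8 tested genes rested on 371 to 3685 fragments each, and kita on 29 to 104. No other gene listed in the table overlaps the position of any of the 9.

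**Figure D1:**
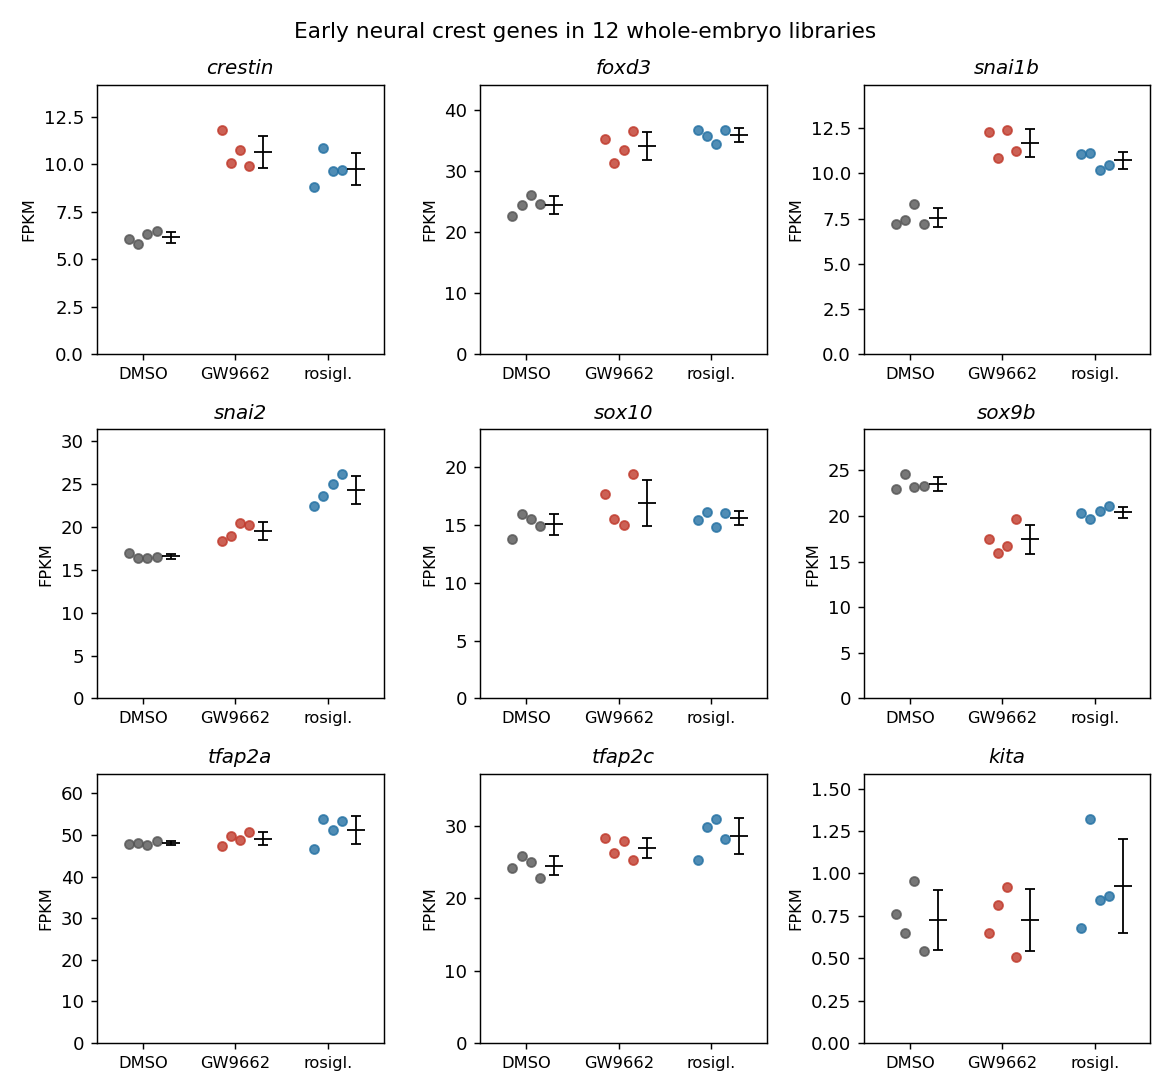
FPKM (vertical axis, from 0) of the 9 early neural crest genes in each of the 12 libraries, by group. Points are libraries, and the bar beside them is the mean ± SD of 4. The libraries of both compounds sit above all DMSO libraries for crestin, foxd3, snai1b and snai2 and below them for sox9b, while sox10, tfap2a, tfap2c and kita overlap.

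Early crest genes did not move as one in GW9662 embryos: crestin, snai1b, foxd3 and snai2 rose, sox9b fell, and sox10, tfap2a and tfap2c did not pass the test. Thus 4 of the 8 tested genes were higher and 1 lower at an adjusted p of 0.05 (limma, Benjamini-Hochberg over all tested genes), where 36% of all tested genes were called, 18.9% higher and 17.1% lower. The median log2 change of the 8 was 0.19, against 0.01 over all genes tested. The 4 GW9662 libraries lay wholly apart from the 4 DMSO libraries for these same 5 of the 9 genes, as they did for 37% of all genes tested (19.4% higher and 17.5% lower). With rosiglitazone, 5 of the 8 were higher and 1 lower, where 17% of all tested genes were called, 9.29% higher and 7.68% lower, with a median of 0.35 against 0.00 over all genes. Rosiglitazone and DMSO libraries were wholly apart for 5 of the 9, as for 20.5% of all genes tested (10.9% higher and 9.6% lower). Both comparisons use the same DMSO libraries and are therefore not independent. The 9 genes were picked with earlier results of these data known, so their counts describe them and are no separate evidence.

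The pan-crest marker crestin (ENSDARG00000105570, chromosome 4, 47257854 to 47262290) is a zebrafish gene of repeat origin with near-identical copies in the genome, so its reads may not all belong to 1 locus. It stood at 6.05, 5.81, 6.33 and 6.46 FPKM in the DMSO libraries, at 11.8, 10.1, 10.8 and 9.93 in the GW9662 libraries and at 8.81, 10.8, 9.66 and 9.71 in the rosiglitazone libraries. Every treated library was above every DMSO library. The rise was 1.67-fold with GW9662 (log2 change 0.74 ± 0.0734 SE, adjusted p = 4.59e-06) and 1.54-fold with rosiglitazone (0.62 ± 0.0734, adjusted p = 8.54e-05). Folds are ratios on the scale of FPKM + 0.5, which understates the change of low genes. Among all tested genes, 92.0% changed less than crestin with GW9662 and 95.9% with rosiglitazone.

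The forkhead factor foxd3 (ENSDARG00000021032, chromosome 6, 32092032 to 32093830) keeps crest progenitors undifferentiated. Its DMSO libraries held 22.6, 24.4, 26.0 and 24.6 FPKM, its GW9662 libraries 35.2, 31.3, 33.3 and 36.5, and its rosiglitazone libraries 36.7, 35.6, 34.4 and 36.7. Both treated groups were clear of the DMSO group and overlapped each other. The rise was 1.39-fold with GW9662 (log2 0.47 ± 0.0557, adjusted p = 2.16e-05) and 1.46-fold with rosiglitazone (0.55 ± 0.0557, adjusted p = 2.79e-05). Of its paralogues, foxd1 and foxd2 did not pass in either comparison, with log2 changes of -0.05 and 0.00 with GW9662 and 0.17 and 0.00 with rosiglitazone. The low foxd5, at 0.783 FPKM in DMSO, did not pass either. In the main fit foxd3 was thus the 1 gene called against DMSO among the 4 FoxD genes listed. The rosiglitazone libraries of foxd1 (35.9 to 38.5 FPKM) nonetheless lay wholly above its DMSO libraries (31.5 to 34.5), as for 10.9% of all genes tested. Its rosiglitazone change passed in 2 of 22 alternative settings (limma, smallest adjusted p = 0.0452).

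Snail genes encode zinc finger repressors of cadherins and drive the epithelial to mesenchymal transition of crest and mesoderm. For snai1b (ENSDARG00000046019, chromosome 23, 2502181 to 2513300), the DMSO libraries held 7.21, 7.45, 8.30 and 7.18 FPKM. The GW9662 libraries held 12.3, 10.9, 12.4 and 11.2, and the rosiglitazone libraries 11.1, 11.1, 10.2 and 10.5. No treated library came down to the DMSO range. The gene rose 1.52-fold with GW9662 (log2 0.60 ± 0.0650, adjusted p = 9.7e-06) and 1.40-fold with rosiglitazone (0.48 ± 0.0650, adjusted p = 2.34e-04).

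The related factor snai2 (ENSDARG00000040046, chromosome 24, 35387517 to 35393533) had the largest difference between the compounds among the 8 tested members. It was close to constant in DMSO, at 17.0, 16.4, 16.4 and 16.6 FPKM, and reached 18.3, 19.0, 20.4 and 20.3 with GW9662 and 22.5, 23.7, 25.0 and 26.2 with rosiglitazone. The 3 groups did not overlap. Against DMSO the gene rose 1.17-fold with GW9662 (log2 0.23 ± 0.0543, adjusted p = 0.00549) and 1.45-fold with rosiglitazone (0.54 ± 0.0543, adjusted p = 2.69e-05).

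The 2 other Snail genes of the table diverged. The mesodermal snai1a rose by a log2 of 0.63 with GW9662, from 14.7 ± 1.08 to 23.0 ± 1.95 FPKM (SD, n = 4), and by 0.38 with rosiglitazone, to 19.3 ± 1.33. By contrast snai3 fell with GW9662, from 2.26 ± 0.401 to 0.718 ± 0.0834 FPKM (log2 -1.17 ± 0.128, adjusted p = 1.16e-05), on 14 to 72 fragments a library. With rosiglitazone snai3 stood at 2.12 ± 0.293 and did not pass (adjusted p = 0.777). The difference between the compounds for snai3 did pass (log2 -1.10, adjusted p = 3.01e-05).

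SoxE factors hold crest cells in a progenitor state and then direct their fates. In sox9b (ENSDARG00000043923, chromosome 3, 62521041 to 62527696) the DMSO libraries were at 23.0, 24.6, 23.2 and 23.3 FPKM, the GW9662 libraries at 17.5, 15.9, 16.7 and 19.7, and the rosiglitazone libraries at 20.3, 19.7, 20.6 and 21.1. It was the 1 member of the 8 that fell. All treated libraries were below all DMSO libraries, and GW9662 replicate 4 reached the lowest rosiglitazone library. The fall was 1.34-fold with GW9662 (log2 -0.42 ± 0.0593, adjusted p = 9.79e-05). With rosiglitazone the log2 change was -0.20 ± 0.0593 (adjusted p = 0.0364), a call lost in 10 of 22 alternative settings, among them leaving out any 1 of the 8 DMSO or rosiglitazone libraries.

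The crest-wide factor sox10 (ENSDARG00000077467, chromosome 3, 1492174 to 1501255), needed for pigment cells, glia and peripheral neurons, overlapped in the 3 groups. Its libraries held 13.8, 15.9, 15.4 and 14.9 FPKM in DMSO, 17.6, 15.5, 14.99 and 19.4 in GW9662 and 15.4, 16.1, 14.8 and 16.0 in rosiglitazone. The GW9662 libraries were the most spread, with GW9662 replicate 4 highest. The log2 change was 0.16 with GW9662 (95% interval -0.01 to 0.32, adjusted p = 0.128) and 0.05 with rosiglitazone (-0.11 to 0.22, adjusted p = 0.715). Without GW9662 replicate 4 the first value was 0.09. Over its 22 alternative settings it ran from 0.09 to 0.21 and was never called (limma, adjusted p from 0.0529 to 0.34).

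Among the other SoxE genes, sox9a rose with GW9662, from 19.5 ± 1.82 to 27.2 ± 2.82 FPKM (SD, n = 4; log2 0.47 ± 0.115, adjusted p = 0.00632), the direction opposite to its duplicate sox9b. In rosiglitazone sox9a was at 22.5 ± 4.07 FPKM and did not pass (adjusted p = 0.301). The sox8a and sox8b genes had at most 15 fragments in a library and were not tested.

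The ratio of each member to sox10 within a library was compared by exact permutation tests, a comparison chosen after the values were seen. An exact permutation test of 4 libraries against 4 cannot go below p = 0.0286, and 24 ratios were tested in all. With GW9662 the log2 ratio to sox10 was higher in every treated library than in every DMSO library for crestin (by 0.58), snai1b (0.45) and foxd3 (0.32) and lower for sox9b (-0.58), each at this smallest p (two-sided exact permutation test, adjusted p = 0.0623). For snai2 the groups overlapped with GW9662, with a difference of 0.07 (exact permutation p = 0.6), as they did for tfap2a, tfap2c and kita. The ratios also carry the level and spread of sox10 itself. Its mean went from 15.02 FPKM in DMSO to 16.9 in GW9662, a change that did not pass. Its GW9662 libraries ran from 14.99 to 19.4 FPKM. The snai2 mean went from 16.6 to 19.5 FPKM between the same groups. The rise of snai2 against DMSO given above stands, but no rise of snai2 relative to sox10 was found with GW9662. The 4 ratios without overlap of the 8 stand beside 29.2% of all tested genes set against sox10 in the same way. With rosiglitazone the same was seen for crestin (0.57), foxd3 (0.50), snai2 (0.48) and snai1b (0.43), and in the lower direction for sox9b (-0.25), 5 ratios of the 8, where the share over all tested genes was 16.3%. None of the 24 passed the adjustment. Every ratio at the smallest p got the same adjusted p of 0.0623 whatever the size of its difference. With so few libraries, this outcome does not measure how large the differences were.

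The AP-2 factors tfap2a and tfap2c act redundantly in crest induction. For tfap2a (ENSDARG00000059279, chromosome 24, 8721676 to 8732519), the most abundant of the 9, libraries ran from 47.7 to 48.7 FPKM in DMSO, from 47.3 to 50.8 in GW9662 and from 46.6 to 53.9 in rosiglitazone. The groups overlapped, and the log2 changes were 0.03 with GW9662 (95% interval -0.07 to 0.13, adjusted p = 0.643) and 0.09 with rosiglitazone (-0.01 to 0.19, adjusted p = 0.224). Without rosiglitazone replicate 1, the lowest of the 12, the latter passed at 0.14 (adjusted p = 0.0261).

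For tfap2c (ENSDARG00000040606, chromosome 6, 56141852 to 56179707) the libraries held 24.2, 25.9, 25.1 and 22.9 FPKM in DMSO, 28.3, 26.3, 28.0 and 25.3 in GW9662 and 25.3, 29.9, 31.0 and 28.2 in rosiglitazone. Treated and DMSO libraries overlapped in both comparisons. The gene did not pass with GW9662 (log2 0.14 ± 0.0658, adjusted p = 0.129) and passed narrowly with rosiglitazone (0.22 ± 0.0658, adjusted p = 0.0404), a call that 12 of 22 alternatives ended. Among the other AP-2 genes, the pigment lineage gene tfap2e fell from 6.33 ± 0.819 to 3.72 ± 0.783 FPKM with GW9662 (SD, n = 4; log2 -0.70 ± 0.134, adjusted p = 0.00115). With rosiglitazone it stood at 4.61 ± 0.647, at the edge of the threshold (adjusted p = 0.0491, lost in 11 of 21 alternatives). The tfap2b gene did not pass in either comparison, and tfap2d had at most 26 fragments in a library and was not tested.

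The receptor tyrosine kinase gene kita (ENSDARG00000043317, chromosome 20, 22335511 to 22378401) serves melanocyte migration and survival. Its libraries held 0.759, 0.650, 0.957 and 0.544 FPKM in DMSO, 0.651, 0.816, 0.922 and 0.507 in GW9662 and 0.678, 1.32, 0.841 and 0.864 in rosiglitazone. All 3 groups overlapped, with the highest value in rosiglitazone replicate 2. A two-sided exact permutation test gave p = 0.971 for GW9662 against DMSO and p = 0.286 for rosiglitazone against DMSO and for GW9662 against rosiglitazone, where the smallest possible is 0.0286. No change of kita was found, on few fragments. Its duplicate kitb had 1 to 19 fragments a library, and the ligand gene kitlgb had none in any.

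The ligand gene kitlga, which guides and sustains melanocytes through kita, was lower with GW9662, at 6.82 ± 0.133 against 9.90 ± 1.15 FPKM in DMSO (SD, n = 4; log2 -0.50 ± 0.0772, adjusted p = 2.27e-04). With rosiglitazone it was at 10.4 ± 0.737 FPKM and did not pass (adjusted p = 0.586). Every GW9662 library was below every library of the other groups.

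**Figure D2:**
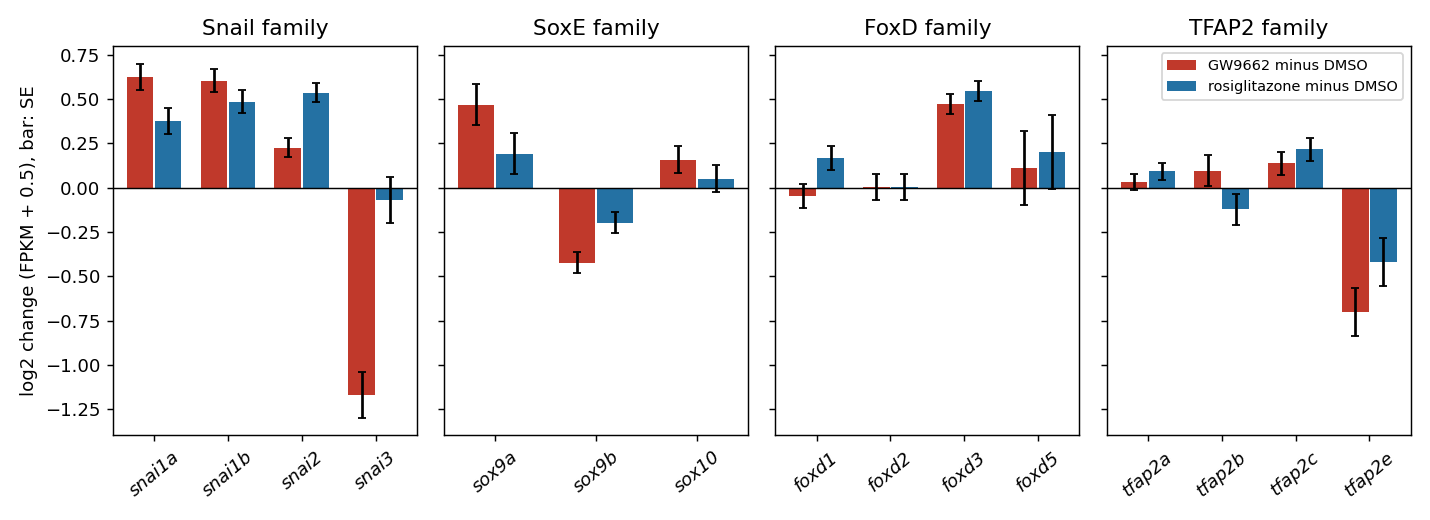
Log2 change against DMSO (vertical axis, on the FPKM + 0.5 scale) of the tested Snail, SoxE, FoxD and TFAP2 genes, with the SE as error bar, for GW9662 in red and rosiglitazone in blue. Within each family the genes differ in direction or in passing the test: snai3 is at -1.17 beside snai1b at 0.60 with GW9662, and sox9a at 0.47 beside sox9b at -0.42.

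Compared directly, GW9662 and rosiglitazone embryos differed in 2 of the 8 tested crest genes, both lower with GW9662, where 30.5% of all genes tested were called, 16% higher and 14.5% lower. The snai2 level was 1.24-fold lower with GW9662 (log2 -0.31 ± 0.0543, adjusted p = 7.95e-04), with no overlap of libraries, as in 29.4% of all genes (15.4% higher and 14% lower). For sox9b the difference was 1.17-fold (log2 -0.23 ± 0.0593, adjusted p = 0.0114). The other 6 did not pass. Their 95% intervals bound the difference to between -0.04 and 0.28 for crestin, -0.19 and 0.05 for foxd3, -0.02 and 0.26 for snai1b, and -0.06 and 0.27 for sox10. They ran from -0.16 to 0.04 for tfap2a and from -0.22 to 0.06 for tfap2c. These intervals do not show that the compounds act alike, and the doses were not matched.

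**Figure D3:**
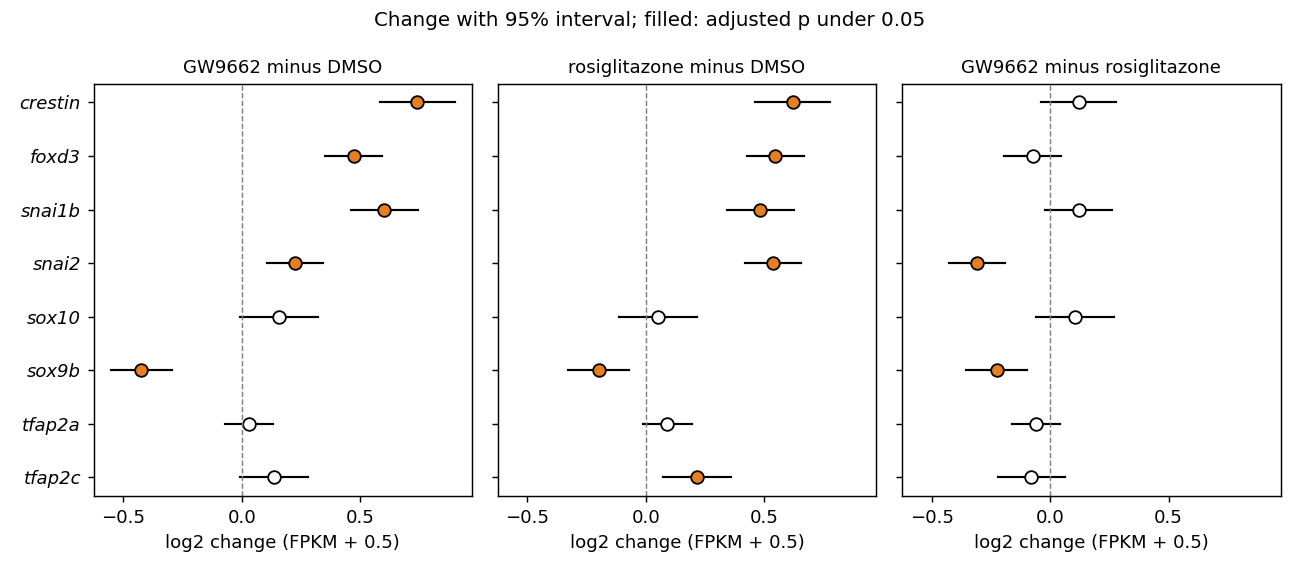
Log2 change (horizontal axis, on the FPKM + 0.5 scale) with its 95% interval for the 8 tested early crest genes in the 3 comparisons; filled points have an adjusted p under 0.05. Crestin, foxd3, snai1b and snai2 lie to the right of 0 and sox9b to the left against DMSO, and snai2 and sox9b lie to the left between the compounds.

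GW9662 replicate 4 held the highest of the 4 GW9662 values for foxd3, sox10, sox9b and tfap2a and the lowest for crestin, tfap2c and kita. Without it, the GW9662 change was -0.48 for sox9b, 0.44 for foxd3 and 0.77 for crestin, all still past the threshold.

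The lists that follow are set beside all tested genes, of which 18.9% were higher and 17.1% lower with GW9662 and 9.29% higher and 7.68% lower with rosiglitazone, with medians of 0.01 and 0.00. Like the members, these lists were chosen with earlier results of these data known, so their counts describe them and are no separate evidence. Genes listed for the neural plate border, which act before the crest specifiers among the members, were called higher more often than lower with both compounds. The tissues in which they were expressed in these embryos were not tested. Of 15 tested neural plate border genes, 9 were higher and 2 lower with GW9662 (median log2 change 0.26), and 8 were higher and none lower with rosiglitazone (0.22). The repressor prdm1a rose from 14.7 ± 0.398 to 23.7 ± 0.979 FPKM with GW9662 and to 20.7 ± 0.752 with rosiglitazone (SD, n = 4). The homeobox genes msx2b and msx1b, which mark the border and dorsal neural tube, rose by 0.55 and 0.43 with GW9662 and by 0.43 and 0.30 with rosiglitazone. The related msx1a rose by 0.43 and 0.74, and dlx3b, of the preplacodal and epidermal side, by 0.44 and 0.14, the last value a call lost in 7 of 22 alternatives. The lower border genes with GW9662, named after their values were seen, were zic1 (-0.21) and dlx4b (-0.29).

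Of 24 tested genes in a list of other crest specifiers and of the epithelial to mesenchymal transition, 11 were higher and 3 lower with GW9662 (median 0.19), and 8 were higher and 1 lower with rosiglitazone (0.13), where 36% and 17% of all tested genes were called. The list also holds genes named above with their families, such as snai1a. The endothelin receptor gene ednrab, active in crest of the arches and pigment lineages, went from 20.0 ± 1.29 FPKM in DMSO to 42.0 ± 2.30 with GW9662 and 37.1 ± 1.81 with rosiglitazone (SD, n = 4). The Myc family genes mych and mycn rose by 0.88 and 0.50 with GW9662 and by 0.75 and 0.43 with rosiglitazone. The cadherin cdh6 rose by 0.52 and 0.30. Against this direction the Twist gene twist3 fell with GW9662 from 7.16 ± 0.390 to 3.62 ± 0.308 FPKM and did not pass with rosiglitazone, at 6.29 ± 0.422 (adjusted p = 0.137). The more abundant twist1a, named after its values were seen, was called higher with GW9662, at 42.3 ± 3.66 against 32.6 ± 1.77 FPKM in DMSO. The related twist1b and twist2 were not called with GW9662.

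Most genes listed for pigment cells were lower with both compounds. How much of this came from crest-derived cells of the whole embryos was not tested. Of 15 tested pigment genes, 11 were lower and 2 higher with GW9662 (median -0.73), and 11 were lower and 1 higher with rosiglitazone (-0.67), where 17.1% and 7.68% of all tested genes were lower. Both counts of lower genes include oca2 and xdh, named after their values were seen. These reached 1 FPKM only in DMSO libraries, so they entered the test through the group where they were high and are no support. The summed level of all 18 listed pigment genes, tested or not, lay between 465 and 472 FPKM in DMSO, 238 and 280 with GW9662 and 251 and 269 with rosiglitazone. The melanin enzyme genes tyrp1b, tyrp1a and dct fell by 1.52, 1.01 and 0.83 on the log2 scale with GW9662 and by 1.23, 1.16 and 1.002 with rosiglitazone. The pteridine gene gch2 fell by 1.02 and 0.86 and the melanosome matrix gene pmela by 0.62 and 0.75. Chosen after its values were seen, the melanocyte regulator mitfa stood at 8.58 ± 0.237 FPKM in DMSO, 5.71 ± 1.18 with GW9662 (log2 -0.57 ± 0.105, adjusted p = 9.09e-04) and 7.67 ± 0.367 with rosiglitazone, which did not pass (adjusted p = 0.374). Also chosen so, the related tfec was higher in both, by 0.93 and 0.66.

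Of 18 tested genes listed for arch crest, the part that builds the face, 8 were lower and none higher with GW9662 (median -0.10), and 2 were lower and 1 higher with rosiglitazone (0.03). Whether arch crest or another tissue gave these values was not tested. Among all tested genes 17.1% were lower with GW9662, and the 3 of 18 called with rosiglitazone are near the 17% of all genes. The mesenchymal factor prrx1b went from 8.46 ± 0.542 to 3.66 ± 0.473 FPKM with GW9662 (SD, n = 4; log2 -1.11 ± 0.0916, adjusted p = 8.36e-07). Other homeobox genes lower with GW9662 included dlx1a, dlx4a and nkx3.2, by -0.61, -0.59 and -0.59, and the POU factor gene pou3f3b, by -0.37. The remaining lower genes, named after their values were seen, were alx1 (from 3.37 to 1.28 FPKM), barx1 (5.98 to 4.66) and pou3f3a (28.2 to 24.8). With rosiglitazone dlx1a and dlx4a fell by 0.49 and 0.42 and the ventral arch gene hand2 rose by 0.39. Of 12 tested genes of crest glia and neurons, 3 were lower and 1 higher with GW9662 (median 0.06), and 1 was lower with rosiglitazone (0.03). Neither count exceeds the share over all tested genes, 36% and 17%, so the list as a whole shows no result and its called genes are given as single values. The autonomic factor phox2bb fell by 0.41 with GW9662, and the proneural genes ascl1a and neurog1, which are also active in the brain, by 0.42 and 0.31. The glial receptor gene erbb3b was at 0.36 with GW9662, a call lost in 9 of 21 alternatives, and ascl1a fell by 0.32 with rosiglitazone. The myelin gene mbpa had no fragment in any library.

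**Figure D4:**
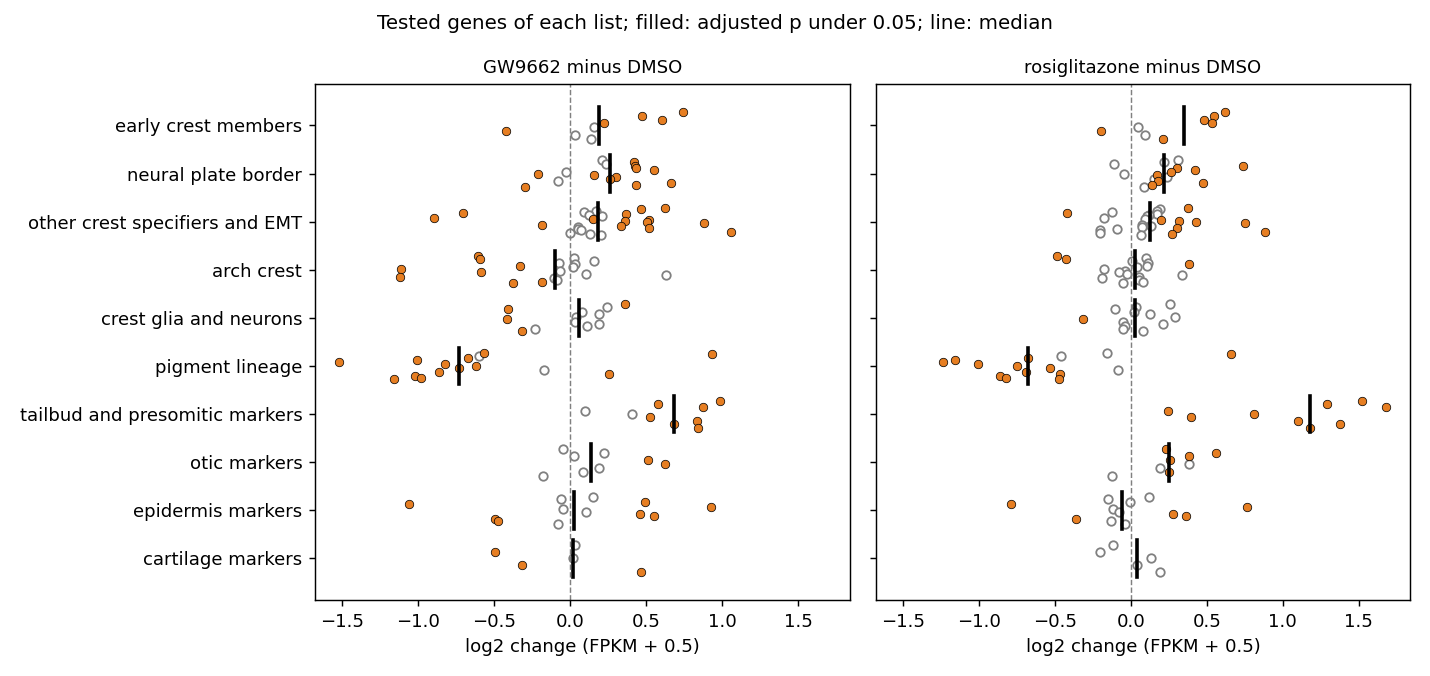
Log2 change against DMSO (horizontal axis, on the FPKM + 0.5 scale) of the tested genes of 10 lists, GW9662 on the left and rosiglitazone on the right; filled points have an adjusted p under 0.05 and vertical lines are medians. Early crest, border and tailbud genes lie mostly to the right of 0 and pigment genes mostly to the left.

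Markers of other tissues that express some members are given next, and their part in the values above was not tested. Of 9 tested tailbud and presomitic genes, 7 were higher with GW9662 (median 0.69) and 9 with rosiglitazone (1.18), with none lower, where 18.9% and 9.29% of all tested genes were higher. The sum of all 11 listed tailbud and presomitic genes was 40.3 to 43.6 FPKM in DMSO, 59.8 to 61.5 with GW9662 and 78.0 to 89.2 with rosiglitazone. The factors tbx6 and msgn1, of presomitic mesoderm, rose by 0.99 and 0.88 with GW9662 and by 1.52 and 1.68 with rosiglitazone. The clock genes her1 and her7 rose by 0.69 and 0.84 and by 1.38 and 1.18, and tbx16 by 0.58 and 1.29. Of 8 tested ear genes, 2 were higher with GW9662 and 5 with rosiglitazone, with none lower. All 10 listed ear genes summed to 72.7 to 78.0 FPKM in DMSO, 81.9 to 83.8 with GW9662 and 89.0 to 93.1 with rosiglitazone. The GW9662 count is near the 18.9% of all tested genes that were higher, and the rosiglitazone count stands beside 9.29%. The otolith gene stm rose by 0.38, the ear matrix gene oc90 by 0.56 and otomp by 0.23 with rosiglitazone, the last lost in 5 of 22 alternatives. With GW9662 the transcription factor genes pax2a and pax5, also active at the midbrain boundary, rose by 0.51 and 0.63. Of these, pax2a was also called higher with rosiglitazone and pax5 was not.

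Of 12 tested epidermis genes, 4 were higher and 3 lower with GW9662 and 3 higher and 2 lower with rosiglitazone (medians 0.03 and -0.06), where 36% and 17% of all tested genes were called. The sums of all 15 listed epidermis genes overlapped, at 5171 to 5995 FPKM in DMSO, 5537 to 6007 with GW9662 and 4986 to 6267 with rosiglitazone. The keratin gene krt92 rose by 0.93 and 0.76, cdh1 by 0.46 and 0.28 and cldne by 0.56 and 0.37, whereas krt91 fell by 1.06 and 0.79 and the linker gene ppl by 0.47 with GW9662. Of 5 tested cartilage genes, sox9a was higher and col9a1a and matn4 were lower with GW9662, by -0.49 and -0.32, and none passed with rosiglitazone. The col9a1a call was lost in 2 of 21 alternatives. No marker of these 4 lists was at 0 in all libraries.

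The genes whose log2 values over the 12 libraries were most like those of a member were sought among tested genes without a clone-type name. They are given as a description, since all 12 points share the 3 groups. For crestin they were the ribosome synthesis gene pdcd11 (Pearson's r = 0.99) and the progenitor factor sall4 (0.98). For foxd3 they were the nuclear import gene ipo7 and the trunk patterning gene hoxb7a (0.98 and 0.97), and for snai1b the hedgehog ligand ihhb and the basement membrane gene nid2a (0.99 and 0.98). The snai2 pattern, highest with rosiglitazone, was closest to klf11a (0.98), at 8.999 FPKM in DMSO, 13.3 with GW9662 and 24.6 with rosiglitazone, and to the lysosomal receptor gene scarb2a (0.97). For sox9b the nearest were mex3b, an RNA-binding protein gene, and akr1b1 (0.96 each), both lower with the compounds. The match was looser for sox10, with tbx1 and kdelr3 at 0.83 each. For tfap2a the closest were mfsd6b and ptpro (0.91 and 0.90), for tfap2c nhsl1b and atp2b2 (0.95 and 0.94), and for kita erbin and bicral (0.96 and 0.93).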

How the data were processed

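Expression was measured by RNA-seq of whole embryos, 4 libraries in each of 3 groups. The authors deposited 1 table of FPKM values per gene and library with gene positions and lengths. Reads were aligned with HISAT2 2.0.5 and counted with featureCounts 1.5.0-p3, per the submitters' processing notes. Positions are those of the deposited table, on a genome build not given in the sources used here. FPKM times gene length gave whole fragments for every value (tolerance 0.001), which gave the depth of each library. The fragments assigned to genes set the precision of low values. The library size implied by the deposited FPKM was 0.957 to 1.04 times those fragments, so the FPKM were not scaled by assigned fragments alone.

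The deposited FPKM were used as log2(FPKM + 0.5). The 14433 genes that reached 1 FPKM in 4 or more libraries were fitted in 1 model of all 12 libraries with limma 3.58.1 (R 4.3.3, intensity trend, no covariate), and p-values were adjusted by Benjamini-Hochberg within each of 3 comparisons. A call is an adjusted p under 0.05. Permutation tests used scipy 1.17.1 (Python 3.11.15). The fit was tested on simulated data. Alternatives were other pseudocounts, filters, scalings and models, a replicate block, and leaving out each library.

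The members and gene lists were chosen with earlier results of these data known. All 9 members and every gene of their families could be named. From each other list the rule names up to 4 genes with the smallest adjusted p in each DMSO comparison, among those called. Likeness names the 2 tested genes with the highest Pearson's r to each member, leaving out clone-type names and symbols with a colon or period. Of 168 listed symbols, 167 matched, 3 of them by gene ID, and ets1 did not match. No sequences are shown.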

Additional observations from a re-analysis of the deposited data

Results flagged for a closer look

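No value of the 9 early crest genes stood apart from its group by the criterion used, a gap to the nearest library above Dixon's 95% critical value for 4 samples. Over the 60 genes checked, the 9 included, 10 of 180 groups of 4 (5.56%) had such a library, where chance flags about 1 in 20. GW9662 replicate 4 was the highest of its group for 2 pigment genes, pmela at 31.5 FPKM (the others 28.0 to 28.1) and tyrp1a at 18.4 (15.4 to 15.7). In DMSO, replicate 4 was highest for dct at 61.5 FPKM (55.3 to 56.3) and for msgn1 at 4.46 (3.47 to 3.61). DMSO replicate 3 was highest for erbb3b at 1.34 FPKM (0.946 to 1.01) and msx2b at 12.6 (11.6 to 11.7) and lowest for gch2 at 182 (192 to 194). Rosiglitazone replicate 2 was highest for erbb3b at 1.75 FPKM (1.18 to 1.27) and lowest for foxd2 at 13.5 (16.2 to 16.6), and rosiglitazone replicate 4 was highest for foxd1 at 38.5 (35.9 to 36.3).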

How the results depend on the processing

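Each of the 24 member results was recomputed under 22 alternatives. Of these values, 505 kept their side of the threshold, 22 lost the call, 1 gained it and no called value reversed. A change of sign was not counted where neither fit passed. The tfap2a change with GW9662, never called, ran from -0.0011 to 0.05. The 22 losses are those of sox9b (10, adjusted p from 0.0105 to 0.101 over its alternatives) and tfap2c (12, from 0.00682 to 0.116) with rosiglitazone. The number of members called was 5 for GW9662 and 2 between the compounds under every alternative, and 4 to 6 for rosiglitazone. Of the values for other named genes, 2183 kept their side of the threshold, 34 lost the call and 5 gained it. The number of all genes called with 1 library left out ranged from 4502 to 5583 for GW9662, 1837 to 2494 for rosiglitazone and 3736 to 4359 between the compounds. Median-ratio scaling changed nothing, because that factor of the deposited FPKM was the same in every library.

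Libraries of equal replicate number deviated together only weakly (correlations of residuals from -0.0502 to 0.228). Pairs of unequal number ran from -0.275 to 0.281. These values cannot tell whether libraries of equal number share a clutch or handling. With the replicate block, 5329, 2433 and 4454 genes were called for GW9662, rosiglitazone and GW9662 against rosiglitazone, against 5196, 2450 and 4398 without it. The values of kita and snai3 rest on few fragments, 29 to 104 and 14 to 72.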
